A study of Mus musculus with 8 samples.

Results

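The genes described here are 10 genes of the cytosolic heat shock system of the mouse, chosen by name from the 49315 genes listed in each file: the small heat shock proteins Hspb1 and Hspb8, the Hsp70 genes Hspa1a, Hspa1b and Hspa8, the Hsp110 gene Hsph1, the J-domain gene Dnajb1, the Hsp90 genes Hsp90aa1 and Hsp90ab1, and the heat shock factor Hsf1. Each name matched 1 row, and all 10 reached 1 TPM (transcripts per 1000000) in 4 libraries or more, so all entered the test over 14272 genes. The samples were immortalized mouse embryonic fibroblasts of 2 kinds, 4 libraries labelled Opa1-/- and 4 labelled Opa1-/- + OPA1, in which OPA1, a GTPase of the inner mitochondrial membrane, had been put back into the same mutant cells. Both groups therefore carry the Opa1 mutation, no wild-type cells were included, and all were grown in serum-containing medium without a treatment. The labels name neither a clone nor the means of reconstitution, and do not say whether libraries came from separate cultures, so p-values cover the spread among the 8 libraries alone, and that spread may be technical. The series was made to learn what losing OPA1 does to gene expression.

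Cytosolic chaperones hold unfolded proteins in solution and help them fold. Small heat shock proteins bind unfolding clients without using ATP. Hsp70 proteins bind and release clients in an ATP cycle that J-domain proteins start and Hsp110 proteins reset, and Hsp90 acts later on kinases, receptors and other clients. When unfolded proteins accumulate, HSF1 trimers bind heat shock elements, repeats of GAA and its complement TTC spaced by 2 bases, in front of the inducible genes (Hspa1a, Hspa1b, Hspb1, Dnajb1, Hsph1, Hsp90aa1), whereas Hspa8 and Hsp90ab1 supply the constitutive pool.

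RefSeq promoters of GRCm38.p6, 300 bases each from 250 before to 50 after a gene start, were at hand for 6 of the 10 genes (Hspb1, Hspb8, Hsph1, Hspa1a, Hspa1b and Dnajb1), with 8 starts in all. A 3-unit element, GAANNTTCNNGAA or TTCNNGAANNTTC on the strand shown (each is the other's reverse complement), was present in 198 of 32851 promoters of that length (0.603%). Hspa8, Hsp90aa1, Hsp90ab1 and Hsf1 had no promoter at hand and were not searched. Among the 6 genes searched, the 3-unit element was found only at Hsph1, where both annotated starts share it (chromosome 5, 149636288 to 149636300, minus strand). It begins 16 bases after 1 of the starts and 37 bases after the other, and is shown with its flank, the match in capitals.

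Hsph1: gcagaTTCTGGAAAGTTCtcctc

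A shorter 2-unit element, GAANNTTC or TTCNNGAA, each its own reverse complement and 2 of which overlap in every 3-unit match, was searched after the 3-unit result was seen. It was present in 4946 of the 32851 promoters (15.1%) and in 24 of 102 promoters (23.5%) of the other chaperones and HSF1-induced genes described below. It was also present in 6 of the 8 promoters of these genes, those of Hspb1, Hspb8, Hsph1, Hspa1a and Hspa1b. The 6 are not independent, since both starts of Hsph1 share the same matches and Hspa1a and Hspa1b are near-identical. The match of Hspb8 begins 3 bases after the start. The 250 bases before the start are shown for the gene that was higher in the knockout-labelled libraries, Hspb1 (chromosome 5, 135887669 to 135887918, plus strand), and for the near-identical pair Hspa1a (chromosome 17, 34972157 to 34972406, minus strand) and Hspa1b (34959239 to 34959488, minus strand), with 2-unit matches in capitals.

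Hspb1: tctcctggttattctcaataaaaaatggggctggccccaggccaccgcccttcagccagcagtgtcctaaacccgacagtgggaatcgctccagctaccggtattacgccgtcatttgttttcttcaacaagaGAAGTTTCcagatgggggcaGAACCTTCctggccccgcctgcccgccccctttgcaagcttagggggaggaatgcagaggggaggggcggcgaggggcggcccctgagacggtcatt
Hspa1a: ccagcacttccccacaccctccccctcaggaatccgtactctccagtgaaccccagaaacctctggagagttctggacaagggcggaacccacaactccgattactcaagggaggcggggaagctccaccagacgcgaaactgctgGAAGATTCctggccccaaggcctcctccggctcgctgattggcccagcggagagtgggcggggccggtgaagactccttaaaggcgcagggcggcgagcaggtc
Hspa1b: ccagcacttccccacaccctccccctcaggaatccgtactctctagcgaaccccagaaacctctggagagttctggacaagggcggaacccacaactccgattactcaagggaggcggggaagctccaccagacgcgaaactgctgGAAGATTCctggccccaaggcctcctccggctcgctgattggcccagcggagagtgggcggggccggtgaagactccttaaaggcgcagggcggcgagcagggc

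The Hspb1 window holds 2 such matches, which start 117 and 97 bases before the gene start. Those of Hspa1a and Hspa1b hold 1, GAAGATTC, which starts 104 bases before the start in both. The Hspa1a and Hspa1b windows differ at 3 of 250 bases, written as the base of Hspa1a, the position counted from 1 at the 5′ end of the window, and the base of Hspa1b: C44T, T47C and T249G. These matches are descriptions of letters, and binding of HSF1 was not measured.

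Values below are TPM scaled to remove library-wide shifts, as mean ± SD with n = 4 libraries per group. Differences are knockout-labelled minus reconstituted libraries on the log2(scaled TPM + 1) scale, which understates the change of low genes. The limma-trend test gave p-values, adjusted by the Benjamini-Hochberg method across 14272 genes, and genes with adjusted p below 0.05 were called. Rose and fell are said of the knockout-labelled libraries relative to the reconstituted ones. The targeted gene does not check the labels: Opa1 was at 12.5 to 14.8 TPM in the knockout-labelled and 14.5 to 15.6 TPM in the reconstituted libraries (-0.09, limma adjusted p = 0.30). Libraries held an estimated 52.6 to 57.5 M (1000000) assigned reads. Of 12 fibroblast markers, 10 reached 1 TPM in 4 libraries or more, with a summed level of 2749 to 3060 TPM in the knockout-labelled and 3219 to 3286 TPM in the reconstituted libraries, led by Vim (1348 to 1569 against 1353 to 1380 TPM). Summed markers of other cell types were far lower: muscle 16.4 to 20.2 against 25.1 to 26.6 TPM (led by Tnnt2, 9.80 to 14.5 against 20.6 to 22.7, with Myog at 0), epithelium 13.8 to 16.7 against 7.79 to 9.94 (led by Cdh1, 11.4 to 15.5 against 7.01 to 8.92), neural cells 15.5 to 17.5 against 21.9 to 25.3 (led by Tubb3, 11.3 to 13.6 against 17.9 to 20.6), leukocytes 2.78 to 7.55 against 4.39 to 6.40 (led by Cd68, 2.168 to 7.07 against 3.49 to 5.65), and endothelium 0.287 to 0.494 against 0.205 to 0.330 (led by Kdr, 0.125 to 0.287 against 0.118 to 0.185). The part of these differences in the results below was not tested, and in bulk libraries fewer cells of a type and less RNA per cell cannot be told apart.

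Hspb1 was 2.43-fold higher by its means in the knockout-labelled libraries, while Hspa1b, Dnajb1, Hsp90aa1 and Hsp90ab1 were lower by 1.54-fold to 1.12-fold. Hspa8, Hspa1a, Hsph1, Hspb8 and Hsf1 were not called. Thus 5 of 10 genes were called, 1 higher and 4 lower, against 33.0% of all genes tested (16.2% higher, 16.8% lower), and the median difference over the 10 was -0.15 against -0.0024 over all genes tested. The groups did not overlap for the same 5 genes, and did not overlap for 36.3% of all genes tested.

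**Figure D1:**
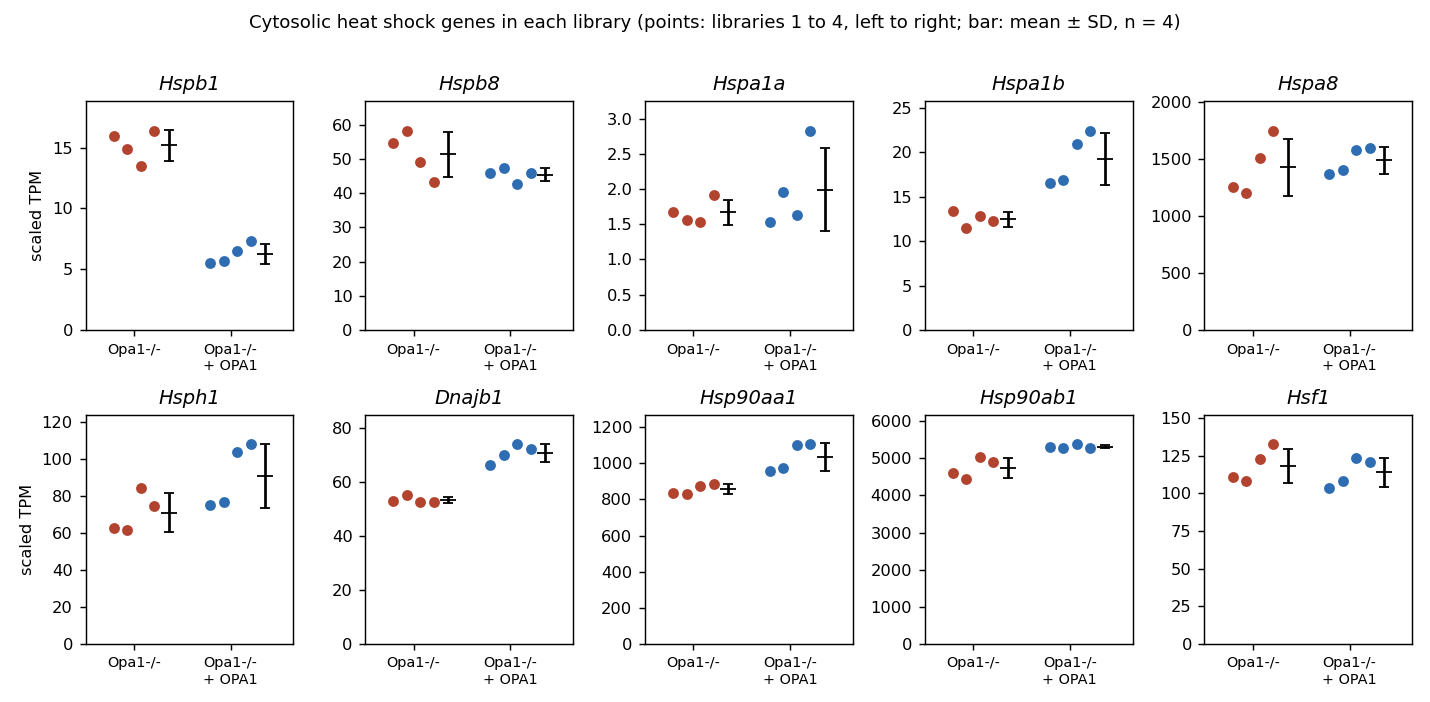
Scaled TPM of each heat shock gene (vertical axes, from 0, 1 scale per gene) in the 4 knockout-labelled and 4 reconstituted libraries, with mean and SD. The 4 knockout-labelled points of Hspb1 (13.5 to 16.4) sit above all reconstituted points (5.48 to 7.31), and those of Hspa1b, Dnajb1, Hsp90aa1 and Hsp90ab1 sit below.

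The levels differed far more between genes than between groups. TPM are per length, but do not correct for sequence shared with other annotated genes, and whether shared reads were counted is not known here. Words of 50 bases recurred in other annotated genes for 66.3% of Hspa1a, 62.3% of Hspa1b and 50.1% of Hspb1. They did so for 47.5% of Hsp90aa1, 39.4% of Hspa8 and no more than 3.44% of any other of the 10 genes. The levels, ranks and order below are uncertain to that extent. Over all 8 libraries Hsp90ab1 had a mean of 5033 TPM and ranked 12 of the 14272 genes tested, Hspa8 had 1458 TPM (rank 61) and Hsp90aa1 946 TPM (rank 116). Hsf1 followed at 116 TPM, Hsph1 at 80.8, Dnajb1 at 61.9, Hspb8 at 48.4, Hspa1b at 15.9, Hspb1 at 10.7 and Hspa1a at 1.83 TPM. The order of Hsf1, Hsph1 and Dnajb1 was the same in 8 of 8 libraries although their ranges over libraries overlapped. Dnajb1 was above Hspb8 in 6 of 8 libraries, and Hspa1b above Hspb1 in 4 of 8, all 4 of them reconstituted. The summed level of the 10 genes was 6792 to 7870 TPM in the knockout-labelled and 7963 to 8427 TPM in the reconstituted libraries, and Hsp90ab1 alone made up 62.3% to 66.8% of it.

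Among the small heat shock proteins, Hspb1, which encodes the ATP-independent chaperone known as Hsp25 in mouse and Hsp27 in human, rose. The gene is protein-coding (ENSMUSG00000004951, plus strand of GRCm38 chromosome 5, 135887919 to 135889563). Knockout-labelled libraries 1 to 4 had 15.97, 14.9, 13.5 and 16.4 TPM. Reconstituted libraries 1 to 4 had 5.48, 5.70, 6.49 and 7.31 TPM. Every knockout-labelled library was thus above every reconstituted one, and the lowest difference between libraries of the same number was 0.95. The means were 15.2 ± 1.29 against 6.24 ± 0.832 TPM (1.16, SE 0.09, 95% confidence interval 0.96 to 1.37, limma adjusted p = 5.19e-05). The values rest on an estimated 107 to 328 reads per library. Of the words of 50 bases in Hspb1 transcripts, 50.1% recur in transcripts of 2 other annotated genes, Hsp25-ps1 and Gm9817, which were at no more than 0.281 and 0.0429 TPM in any library. Whether reads matching both places were counted is not known here, and the level of Hspb1 is uncertain to that extent.

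Hspb8, a small heat shock protein that works with the co-chaperone BAG3 in handing aggregated clients to autophagy, did not pass. It (chromosome 5, 116408491 to 116422864, minus strand) was at 54.9, 58.4, 49.1 and 43.2 TPM in the knockout-labelled and 45.9, 47.3, 42.8 and 45.9 TPM in the reconstituted libraries. The groups overlapped, with knockout-labelled library 4 below 3 of the reconstituted libraries (difference 0.17, 95% confidence interval -0.03 to 0.36, limma adjusted p = 0.170). Leaving out 1 library at a time moved the difference from 0.10 (without knockout-labelled library 2, limma adjusted p = 0.365) to 0.25 (without knockout-labelled library 4, adjusted p = 0.0140). Bag3 itself was at 45.6 ± 3.57 against 42.3 ± 1.56 TPM and was not called. The ratio of Hspb1 to Hspb8, which no scaling of libraries can move, was 0.30 ± 0.0547 in the knockout-labelled and 0.138 ± 0.0208 in the reconstituted libraries. It was higher in 4 of 4 libraries than in the reconstituted library of the same number (1.12 on the log2 scale, exact two-sided permutation test over 70 splits, p = 0.0286, the smallest these 4 against 4 libraries can give, and 0.0429 adjusted over 3 ratios).

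The inducible Hsp70 genes Hspa1a and Hspa1b are intronless copies that lie 9951 bases apart on chromosome 17 (Hspa1a 34969190 to 34972156, Hspa1b 34956436 to 34959238, both on the minus strand) and encode nearly the same protein. Hspa1b fell. It was at 13.4, 11.4, 12.8 and 12.3 TPM in the knockout-labelled libraries, in number order, and at 16.6, 16.9, 21.0 and 22.4 TPM in the reconstituted ones. The groups did not overlap, and the reconstituted libraries 3 and 4 stood above 1 and 2 while the knockout-labelled ones did not. With every knockout-labelled value below every reconstituted one, the means were 12.5 ± 0.849 against 19.2 ± 2.93 TPM (-0.58, SE 0.10, 95% confidence interval -0.80 to -0.35, limma adjusted p = 0.00251).

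Hspa1a was near the lower limit of the test, at 1.67, 1.56, 1.54 and 1.92 TPM against 1.53, 1.96, 1.63 and 2.83 TPM. The groups overlapped, and the highest value was that of reconstituted library 4 (-0.14, 95% confidence interval -0.46 to 0.17, limma adjusted p = 0.464). Without that library the difference was -0.019. Of the 50-base words in Hspa1a 66.3%, and of those in Hspa1b 62.3%, recur in other annotated genes, most often in the other copy, and 564 exonic bases of Hspa1a are overlapped on the other strand by Gm20481, which was listed at 0 in all 8 libraries. The split of reads between the 2 copies is therefore uncertain.

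Hspa8, the constitutive Hsc70, which also uncoats clathrin vesicles and serves chaperone-mediated autophagy (chromosome 9, 40800984 to 40810087, plus strand), did not pass. It was at 1251, 1203, 1508 and 1749 TPM in the knockout-labelled libraries, in number order, and at 1372, 1406, 1575 and 1597 TPM in the reconstituted ones. Libraries 3 and 4 were above 1 and 2 in both groups, and the groups overlapped (-0.07, 95% confidence interval -0.33 to 0.19, limma adjusted p = 0.675). Leaving out 1 library at a time gave -0.17 (without knockout-labelled library 4) to 0.0052 (without knockout-labelled library 2). Of its 50-base words 39.4% recur in other annotated transcripts, among them Gm15459 and Gm26825. Gm15459 was at 129 to 165 TPM in the knockout-labelled and 186 to 219 TPM in the reconstituted libraries, without overlap. Gm26825 was at 129 to 267 TPM against 199 to 224 TPM. How reads were divided between these genes and Hspa8 is not known here, and the difference of Hspa8 is uncertain to that extent. Set against Hspa8, the summed inducible copies had a ratio of 0.0101 ± 0.00170 in the knockout-labelled and 0.0142 ± 0.00119 in the reconstituted libraries, lower in 4 of 4 same-numbered comparisons (-0.50 on the log2 scale, exact two-sided permutation test, p = 0.0286, the smallest possible here, and 0.0429 adjusted over 3 ratios). Without any 1 of the reconstituted libraries 1, 2, 3 or 4 the exact permutation p was 0.0571, with a ratio difference of -0.53, -0.53, -0.49 and -0.45.

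Hsph1 encodes Hsp105, an Hsp110 protein that exchanges the nucleotide of Hsp70 and holds clients (chromosome 5, 149614287 to 149636376, minus strand). It was at 62.9, 61.7, 84.2 and 74.6 TPM in the knockout-labelled libraries, in number order, and at 75.0, 76.7, 103.8 and 107.9 TPM in the reconstituted ones. Each knockout-labelled library was below the reconstituted library of its own number, but libraries 3 and 4 were above 1 and 2 in both groups, so the groups overlapped. The difference was -0.35 (SE 0.14, 95% confidence interval -0.67 to -0.02, limma adjusted p = 0.0961). With the replicate number as a block, the same difference had SE 0.05, a 95% confidence interval of -0.48 to -0.21 and adjusted p = 0.00601. Over all genes tested, 33.3% were called with that block. Among the 10 genes, libraries 3 and 4 were above 1 and 2 in both groups for Hsph1, Hspa8, Hsp90aa1 and Hsf1, against 7.29% of all genes tested.

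**Figure D2:**
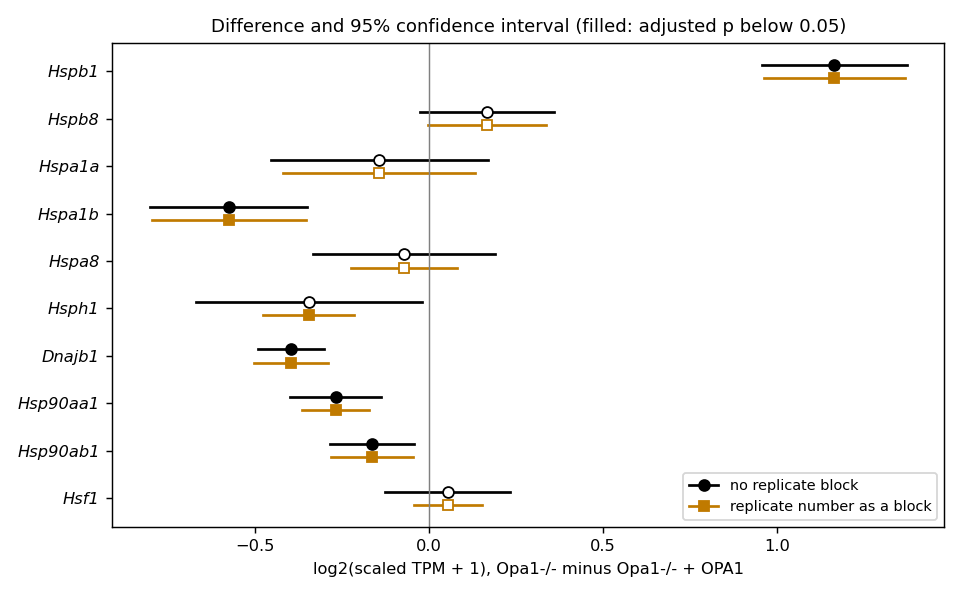
Difference between the groups for each gene (horizontal axis, log2 of scaled TPM plus 1, knockout-labelled minus reconstituted) with its 95% confidence interval, without and with the replicate number as a block. Filled symbols passed adjusted p below 0.05, and Hsph1 (-0.35) is the gene whose call differs between the fits.

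Dnajb1, or Hsp40, the J-domain protein that delivers clients to Hsp70 and is itself an HSF1 target, fell. It (chromosome 8, 83608193 to 83612653, plus strand) was at 52.9, 55.0, 52.4 and 52.6 TPM in the knockout-labelled libraries, in number order, and at 66.2, 69.8, 73.8 and 72.2 TPM in the reconstituted ones. The groups were well apart, with 53.2 ± 1.20 against 70.5 ± 3.28 TPM (-0.40, SE 0.04, 95% confidence interval -0.49 to -0.30, limma adjusted p = 0.000211). Genes of chromosome 8 as a whole were lower, with a median of -0.18 over 524 genes. With each chromosome's median removed, Dnajb1 was at -0.21 with adjusted p = 0.00501.

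Of the Hsp90 genes, Hsp90aa1, the more stress-responsive form (chromosome 12, 110690605 to 110702728, minus strand), was at 836, 831, 876 and 887 TPM in the knockout-labelled libraries, in number order, and at 959, 974, 1103 and 1104.5 TPM in the reconstituted ones. It was lower in each of 4 same-numbered comparisons, with 857 ± 28.2 against 1035 ± 79.6 TPM (-0.27, SE 0.06, 95% confidence interval -0.40 to -0.14, limma adjusted p = 0.00742). The median of 321 genes on chromosome 12 was -0.10, and with chromosome medians removed the difference was -0.16 with adjusted p = 0.0781. Annotated copies share 47.5% of its 50-base words. The most similar one, Gm12346, was at 13.4 to 15.9 TPM in the knockout-labelled and 16.4 to 18.6 TPM in the reconstituted libraries.

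Hsp90ab1, the constitutive form and the most abundant of the 10 (chromosome 17, 45567775 to 45573271, minus strand), was at 4610, 4447, 5042 and 4901 TPM in the knockout-labelled libraries, in number order, and at 5318, 5294, 5375 and 5276 TPM in the reconstituted ones. The groups did not overlap, but the difference was small (4750.0 ± 271 against 5316 ± 43.3 TPM, -0.16, SE 0.05, limma adjusted p = 0.0415). The call was lost under 9 of 19 alternatives. Adjusted p was 0.107 and 0.0966 without knockout-labelled library 1 and 2, and 0.0952, 0.0863, 0.0994 and 0.0955 without reconstituted library 1, 2, 3 and 4. It was 0.129 on the deposited TPM, 0.209 with upper-quartile scaling and 0.402 with no filter on low values. The ratio of Hsp90aa1 to Hsp90ab1 was 0.181 ± 0.00538 in the knockout-labelled and 0.195 ± 0.0147 in the reconstituted libraries, lower in 2 of 4 same-numbered comparisons (-0.11 on the log2 scale, exact two-sided permutation test, p = 0.2, and 0.2 adjusted over 3 ratios).

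Hsf1, the transcription factor of the heat shock response (chromosome 15, 76477422 to 76501913, plus strand), did not pass. It was at 111, 108, 123 and 133 TPM in the knockout-labelled libraries, in number order, and at 104, 108, 124 and 121 TPM in the reconstituted ones. The groups overlapped (0.05, 95% confidence interval -0.13 to 0.23, limma adjusted p = 0.647). HSF1 is controlled mainly through its protein, which was not measured. Leaving out 1 library at a time gave -0.00032 (without knockout-labelled library 4) to 0.097 (without knockout-labelled library 2).

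**Figure D3:**
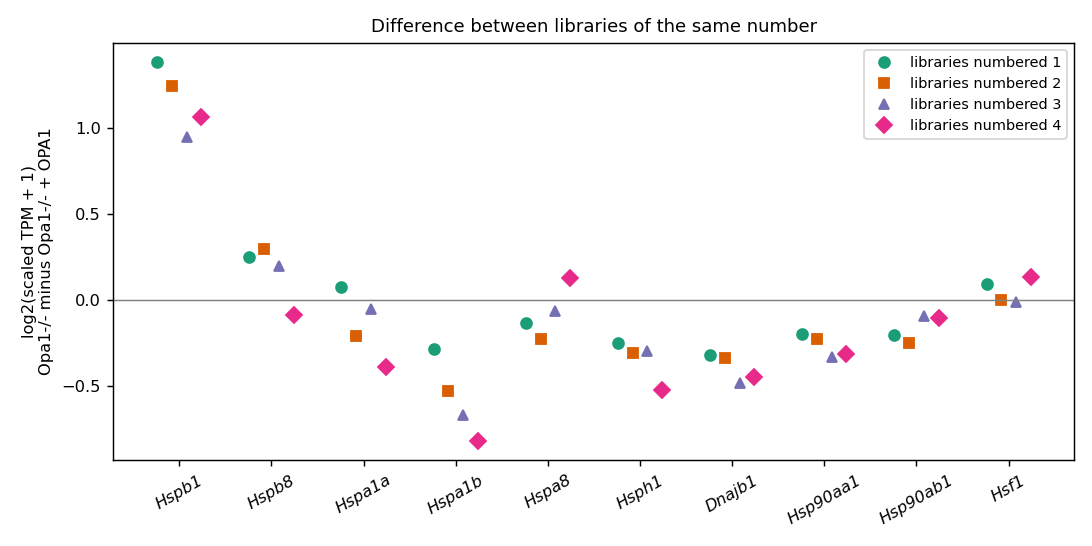
Difference between the knockout-labelled and the reconstituted library of the same number (vertical axis, log2 of scaled TPM plus 1) for each gene, 1 symbol per library number. The 4 symbols of Hspb1 lie between 0.95 and 1.39, and all 4 of Hspa1b, Hsph1, Dnajb1, Hsp90aa1 and Hsp90ab1 lie below 0. How many of all genes tested lie on 1 side in all 4 comparisons is not given here.

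Other cytosolic chaperones and co-chaperones, 79 genes in 6 lists, had 72 tested members, of which 5 were higher, 14 lower and 53 not called. The share called was 26.4%, against 33.0% of all genes tested, with a median of -0.06. The counts moved with the libraries and the scaling: without knockout-labelled library 4 they were 12 higher and 18 lower, and on the deposited TPM 4 and 2. Over all genes tested, the fit without that library gave 2558 higher and 2747 lower of 13949. The deposited TPM gave 1752 higher and 1529 lower of 14272. Of the 24 genes named here from these lists and the lists of HSF1-related genes, 6 passed under each of 19 alternatives (Hspb6, Dnajb4, Pih1d1, Cited2, Ier5 and Sqstm1), and the other 18 lost the call under 1 to 14 of them.

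Among 7 other small heat shock proteins, 3 were tested and 1 was higher (33.3% called, near the 33.0% of all genes tested). Hspb6, also called Hsp20, rose from 25.8 ± 1.68 to 33.6 ± 3.44 TPM. Cryab, the alpha-B crystallin chain and a close relative of Hspb1, was at 9.86 ± 1.13 against 9.38 ± 0.823 TPM and was not called. Of 7 other Hsp70 and Hsp110 genes, 6 were tested and 33.3% called, again near the share of all genes tested. The 1 higher was Hspa12b (15.1 ± 1.02 against 13.1 ± 0.675 TPM) and the 1 lower Hspa4 (275 ± 3.15 against 296 ± 4.89 TPM). Those calls were lost under 9 and 10 of 19 alternatives. With the replicate number as a block, the call of Hspa12b was lost (limma adjusted p = 0.0694).

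Of 14 J-domain genes tested, 2 were higher and 3 lower, a share called (35.7%) near that of all genes tested (33.0%). Dnajb4, a stress-inducible relative of Dnajb1, rose from 5.28 ± 0.150 to 7.47 ± 0.618 TPM, opposite in direction to Dnajb1. Dnajc2, which acts at the ribosome, was at 87.9 ± 5.84 against 76.2 ± 1.92 TPM, and with chromosome medians removed at 0.14 with limma adjusted p = 0.0801. The calls of Dnajc27 and Dnaja1, both lower, were lost under 10 and 13 alternatives. Across the alternatives the difference of Dnaja1 ranged from -0.208 to -0.013. Of 9 genes that control the Hsp70 cycle, 2 were lower and 0 higher (22.2% called, against 33.0% of all genes tested). These were Bag4 (10.1 ± 1.29 against 12.8 ± 0.138 TPM) and Bag1 (295 ± 12.1 against 330 ± 13.5 TPM). Bag4 lies on chromosome 8 like Dnajb1 and was at -0.13 (adjusted p = 0.242) with chromosome medians removed. Bag1 lost its call under 7 alternatives, and with chromosome medians removed it was at -0.009 with limma adjusted p = 0.90.

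Hsp90 co-chaperones had 1 of 24 higher and 2 lower (12.5% called, against 33.0% of all genes tested). Pih1d1, part of the R2TP complex that joins Hsp90 to the assembly of large complexes, rose from 68.9 ± 1.96 to 92.8 ± 1.77 TPM. Tomm34 and Ahsa1 were lower, and their calls were lost under 2 and 12 alternatives. With chromosome medians removed Ahsa1 was at -0.037 with limma adjusted p = 0.647. For Tomm34 adjusted p was 0.0501 without reconstituted library 4. Stip1, which links Hsp70 to Hsp90, was at 694 ± 61.5 against 778 ± 46.2 TPM, lower in 4 of 4 same-numbered comparisons. It was not called without the replicate block (limma adjusted p = 0.0930) and was called lower with it (adjusted p = 0.0160). Of 16 genes of the TRiC chaperonin, which folds actin and tubulin, and of prefoldin, 6 were lower and 0 higher (37.5% called, against 33.0% of all genes tested, of which 16.8% were lower). Vbp1, a prefoldin subunit on the X chromosome, was at 144 ± 10.3 against 192 ± 4.58 TPM, and with chromosome medians removed at -0.07 with limma adjusted p = 0.349. Cct7, Cct6a and Cct8, subunits of TRiC, were at -0.18, -0.16 and -0.14, and lost the call under 5, 1 and 14 alternatives. The replicate block was among those for Cct8 (limma adjusted p = 0.0520).

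**Figure D4:**
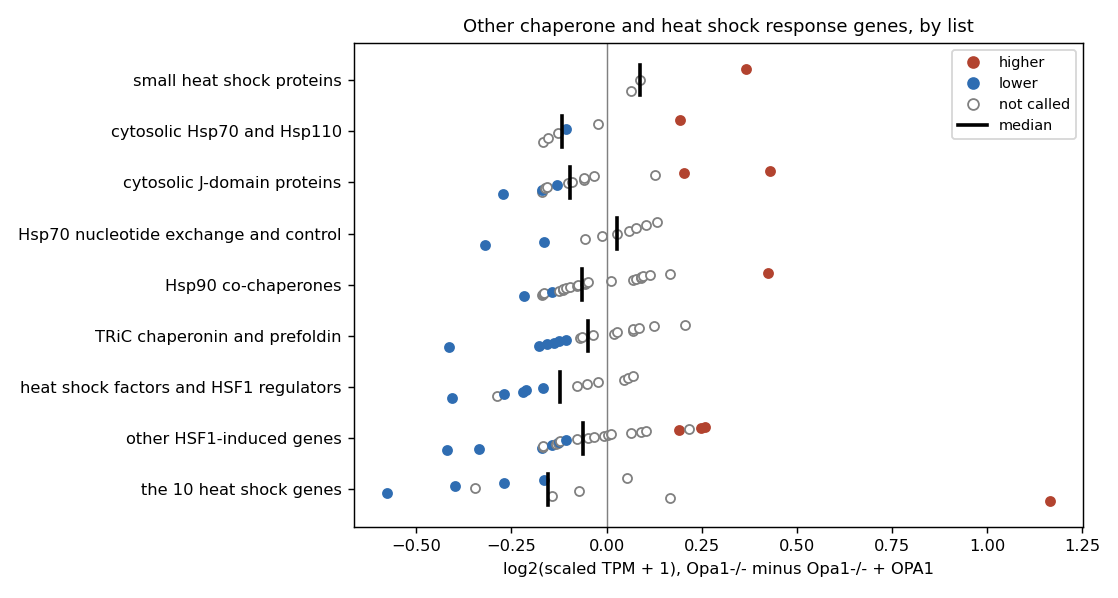
Differences of the other chaperone and heat shock response genes by list, and of the 10 heat shock genes in the lowest row (horizontal axis, log2 of scaled TPM plus 1). Colored points were called, open points were not, and black bars mark list medians, which lie between -0.15 and 0.09.

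Heat shock factors and genes that regulate HSF1 had 12 of 16 tested, 0 higher and 5 lower (41.7% called, against 33.0% of all genes tested, of which 16.8% were lower). Vcp, an ATPase that extracts ubiquitinated proteins, was at 330.4 ± 18.8 against 398 ± 14.1 TPM, and Hdac6, a cytosolic deacetylase whose gene is X-linked, at 28.1 ± 1.44 against 37.6 ± 2.27 TPM. With chromosome medians removed these were at -0.11 (adjusted p = 0.109) and -0.06 (adjusted p = 0.454), and Hsbp1, an HSF1-binding protein, at -0.02 (adjusted p = 0.764). Sirt1, which deacetylates HSF1, was at 27.1 ± 1.53 against 31.6 ± 1.13 TPM, with adjusted p = 0.0811 on the deposited TPM. Hsf2 was not called (41.6 ± 2.64 against 39.6 ± 1.47 TPM).

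Among 24 other genes known to be induced through HSF1, some also in the lists above, 3 were higher and 6 lower, with a median of -0.06. Their share called, 37.5%, was near the 33.0% of all genes tested. Cited2, a transcriptional coregulator, fell from 368 ± 28.2 to 275 ± 8.65 TPM and Ier5, which promotes HSF1 activity, from 125 ± 7.76 to 98.9 ± 7.84 TPM. Sqstm1, the autophagy receptor p62 and also a target of NRF2, rose from 227 ± 8.47 to 272 ± 10.5 TPM. Dedd2 was at 3.28 ± 0.2997 against 2.60 ± 0.119 TPM, and its call was lost under 11 of 18 alternatives, the replicate block among them (limma adjusted p = 0.0567). In the promoters of these HSF1-induced genes and the other chaperones, the 3-unit element was present for 4 of the 81 genes with an entry. These were Dnajb6, Chordc1, Hspd1 and Hspe1. Of the 4, 0 were called without the replicate block, against 33.0% of all genes tested. Hspd1 came nearest, at 1248 ± 28.0 against 1364 ± 61.4 TPM (-0.13, limma adjusted p = 0.0520). With the replicate block it was called lower (adjusted p = 0.0416), which makes 1 of the 4, against 33.3% of all genes tested. So few genes cannot be told apart from those shares.

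By likeness of log2 scaled TPM over the 8 libraries, among 7978 genes with a mean of 10 TPM or more, the genes most like Hspb1 were Cpq (Pearson r = 0.995), Tspan4 (0.991) and Alkbh7 (0.987). Those most like Hspa1b were Ddx18 (0.990), Aven (0.981) and Tmem43 (0.979). These are the highest of many correlations over 8 libraries that fall into 2 groups and share their preparation, and are given as a description. Cpq was at 32.8 ± 1.31 against 24.6 ± 1.13 TPM and Ddx18 at 198 ± 4.72 against 227 ± 10.7 TPM.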

How the data were processed

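RNA of 8 fibroblast libraries was sequenced. The submitters' processing notes name STAR 2.5.2b and featureCounts, with Subread 1.5.2 and bcl2fastq 2.17, and builds mm10 and GRCh38 without a role. Strand and multi-mapping settings are not given in the sources used here. The authors deposited TPM values, per the file headers, for 49315 genes per library.

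Each library was scaled to a geometric-mean library by the mean log ratio of its genes, leaving out 30% of ratios and 5% of levels at either end. Genes reaching 1 TPM in 4 libraries or more entered limma 3.58.1 (run in R 4.3.3, prior variance fitted as a trend on mean level) on log2(scaled TPM + 1), two-sided. The same fit was also run on simulated libraries with known changes and independent noise. Since same-numbered libraries here tended to deviate together (below), that run does not give the error rate of these calls. TPM keeps no depth. Reads were estimated from whole multiples in TPM times exon length (GENCODE M21, GRCm38), whole within 0.05 of a read for 95.3% to 96.0% of low values. Every 2 libraries of a group differed by more than counting noise (lowest chi-square per degree of freedom 4.38).

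Same-numbered libraries tended to deviate together (r = 0.25, 0.22, 0.32 and 0.12 for numbers 1 to 4 over 9416 genes). Libraries of unlike number had r of -0.32 to 0.11. For number 4 the pairing is weak, at 0.119 against 0.114 for knockout-labelled library 3 with reconstituted library 4. Deviations were taken from group means, so these values are not independent of each other. A fit with the replicate number as a block is given where it changes the call of a gene named here. This pairing comes from the data and not from the labels.

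The 10 genes, lists and tests were chosen with earlier results of these data known. From each list, up to 4 called genes with the largest difference were named, and likeness used the called heat shock genes with the highest and lowest difference. Bag3, Cryab, Stip1, Hsf2 and the genes with a promoter match were named outside that rule, after their values were seen. Tables, plots and the full enumeration of the permutation tests were made in Python 3.11.15 (numpy 2.4.6, pandas 2.3.3, matplotlib 3.10.9).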

Additional observations from a re-analysis of the deposited data

Results flagged for a closer look

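In groups of 4 libraries, 1 library stood far from the other 3 in 2 of 76 groups examined (Dixon's test at the 95% level, which flags about 1 group in 20 by chance). Cct6a was at 445 TPM in knockout-labelled library 3, against 421 to 424 TPM in the other knockout-labelled libraries. Opa1 was at 15.6 TPM in reconstituted library 1, against 14.5 to 14.6 TPM in the other reconstituted libraries. None of the 10 heat shock genes and none of the 3 ratios met this criterion.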

How the results depend on the processing

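The 19 alternatives covered scaling, pseudocount, filter, length and GC trends, chromosome medians, the replicate block and leaving out libraries, and no difference of a called gene changed sign. Hspb1, Hspa1b and Dnajb1 kept their call under all 19. Without 1 library at a time, 4 to 6 of the 10 heat shock genes were called, 1 to 2 of them higher (2 without knockout-labelled library 4) and 3 to 4 lower. With the replicate number as a block 6 of 10 were called, 5 lower, and Hsph1 was the heat shock gene whose call changed. That block gave 20 other chaperones called and 4749 of all genes.

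The count of other chaperones called (19, of which 5 higher and 14 lower) depended most on the processing. It was 6 on the deposited TPM (2 lower), 12 with upper-quartile scaling (5 lower), 11 with chromosome medians removed (6 lower) and 7 without both libraries numbered 3 (3 lower). With no filter on low values 9 were lower. With length and GC trends removed 8 were higher, and 9 with the block added. Without 1 library at a time the count was 9 (without reconstituted library 3) to 30 (without knockout-labelled library 4), with 4 to 12 higher and 5 to 18 lower. Calls over all genes moved the same way in those fits, to 3521 of 14047 and 5305 of 13949 genes tested. Of all genes, 1537 were higher without both libraries numbered 3, against 2311, and 1529 were lower on the deposited TPM, against 2401. Upper-quartile scaling gave 2476 higher and 2056 lower. The cause of these shifts was not tested.

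TPM carry no depth, so sampling error at low levels, as for Hspa1a at an estimated 84 to 155 reads, enters only through the spread between libraries. Each ratio kept its direction under the 11 alternatives run for it. With the replicate block, as sign flips of 4 pairs, the inducible Hsp70 (-0.50) and Hspb1 to Hspb8 (1.12) ratios had exact p = 0.125, the smallest that 4 pairs can give. Without 1 library at a time these were -0.59 to -0.40 and 1.00 to 1.19.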
